A study of Mus musculus with 4 samples.

Results

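The cells described here were the immune cells of RAC1 A159V tumors, compared between 1 library from mice given an anti-PD1 antibody and 1 library from mice given control IgG. A barcode was taken as an immune cell when it held more than 500 genes, at least 2 UMIs of Ptprc (which encodes CD45) and 0 UMIs of Hmga2, a gene that marks the tumor cells. This left 7807 barcodes (3111 from the IgG library and 4696 from the anti-PD1 library) of 17996 barcodes in these libraries and 33228 in the series. Within them, T barcodes held at least 2 UMIs of Cd3d, Cd3e and Cd3g together, NK barcodes at least 2 UMIs of Ncr1 and Klrb1c with no Cd3 UMI, and myeloid barcodes at least 3 UMIs of Lyz2. The tumors grew from MC38, a mouse colon adenocarcinoma line, under the skin of C57BL/6 mice, and their cells were sequenced one by one with the 3′ droplet assay of 10x Genomics. In both groups the tumor cells carried RAC1 A159V, written into the endogenous gene by CRISPR-Cas9, and the edited line was 1 clone, while the host immune cells were not edited. The sources used here give neither the number of mice behind a library nor whether tumors were pooled. CD45+ and CD45− cells were separated on beads and mixed again before loading, so the share of immune barcodes among all barcodes is set by the mixing. The same gates found 3738 immune barcodes in WT IgG and 3508 in WT anti-PD1, libraries from tumors of unedited MC38 cells, which are used only for values set side by side. The question is how PD1 blockade changes each immune lineage in the A159V tumors.

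PD1, encoded by Pdcd1, is an inhibitory receptor that T cells gain on activation, and its ligands PD-L1 (Cd274) and PD-L2 (Pdcd1lg2) are carried by tumor, myeloid and other cells. An antibody against PD1 blocks that contact and lets T cells that recognize the tumor signal longer. T and NK cells kill with perforin and granzymes and release interferon gamma, which acts on monocytes and macrophages to raise antigen presentation genes, guanylate-binding proteins and the chemokines Cxcl9 and Cxcl10. Type I interferons act through another receptor and raise a partly shared set of antiviral genes.

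The libraries held 8685 barcodes and 113779013 UMIs in A159V IgG and 9311 barcodes and 125227747 UMIs in A159V anti-PD1, and the gene minimum left out 553 and 432 barcodes. Immune barcodes were deeper in anti-PD1, with a median of 3107.5 UMIs against 2435 in IgG. The libraries shared 22 barcode sequences, of which 4 were immune barcodes. With 1 library a group there is no replicate, so no test of the conditions was run, no p-value is given, and all intervals are 95% intervals that cover counting error only. Marker genes outside the gates matched the lineage names. Trac was in 62.8% and 68.5% of T barcodes in IgG and anti-PD1. Klre1 was in 88.0% and 79.8% of NK barcodes, and Itgam in 65.9% and 78.6% of myeloid barcodes. Krt8 and Cldn5, markers of epithelial and endothelial cells, were at 0 in all 3 lineages. Krt8 was also in only 0.57% and 1.85% of tumor gate barcodes, and Cldn5 in 0% and 0.08%. These zeros therefore do not show the lineages free of RNA of other cells. Rhox5, a tumor-line marker, was in 99.6% and 99.0% of tumor gate barcodes. It was in 9.49% and 8.35% of T, 8.03% and 13.5% of NK and 9.88% and 9.12% of myeloid barcodes. The WT anti-PD1 library stood apart from WT IgG in its other cells: it held 91 barcodes of the tumor gate against 746 and 1496 of the stromal gate against 277, the Ly6c2 gate of monocyte-like cells took 12.5% of its myeloid barcodes against 56.7%, and the stromal list had a median log2 ratio of 5.51 in WT T barcodes and 3.405 in WT myeloid barcodes. The part of this in any WT value was not tested.

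NK barcodes took a smaller share of the immune barcodes under anti-PD1, and the share of T barcodes was close in both libraries. NK barcodes numbered 249 of 3111 (8.0%, 7.07 to 9.01) in IgG and 223 of 4696 (4.75%, 4.16 to 5.40) in anti-PD1, a fold of 0.593 (0.498 to 0.707) that ranged from 0.502 to 0.596 over the alternative gates and depths. T barcodes were 548 (17.6%, 16.3 to 19.0) and 874 (18.6%, 17.5 to 19.8), a fold of 1.06 (0.959 to 1.16). Myeloid barcodes were 972 (31.2%, 29.6 to 32.9) and 1721 (36.6%, 35.3 to 38.0), a fold of 1.17 (1.10 to 1.25). That fold was 1.0 once every barcode was thinned to 1500 UMIs and 1.33 with stricter gates, so the myeloid share moved with the depth and the gate. Barcodes that met no lineage gate made up 44.7% and 41.4%. In WT tumors, set beside these with no test of the difference, the folds were 2.30 for NK, 1.38 for T and 0.672 for myeloid barcodes.

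Among T barcodes, those of the Foxp3 gate (at least 1 UMI of Foxp3, the transcription factor that defines regulatory T cells, and no Cd8a or Cd8b1) were the subset whose share differed most. They were 41 of 548 (7.48%) in IgG and 115 of 874 (13.2%) in anti-PD1, a fold of 1.76 (1.25 to 2.47). The CD8 gate held 201 (36.7%) and 366 (41.9%) barcodes, a fold of 1.14 (0.998 to 1.31). The CD4 gate without Foxp3 held 48 (8.76%) and 78 (8.92%), and the Trdc gate, which marks gamma-delta T cells, 32 (5.84%) and 46 (5.26%), and the intervals of both folds spanned 1. After thinning, Foxp3 was seen in 4.12% of 461 T barcodes (2.50 to 6.36) and 8.63% of 811 (6.79 to 10.8), with 87 and 63 shallower barcodes left out (T barcodes had medians of 2676.5 and 3117 UMIs before thinning). Among 1227 and 1244 tumor barcodes (medians 35604 and 46334.5 UMIs) thinned alike it was in 0, which allows a share of up to 0.244% and 0.241%. Among myeloid barcodes, the C1q gate (macrophages rich in complement C1q) held 173 (17.8%) and 356 (20.7%), and the Ly6c2 gate (monocyte-like cells) 550 (56.6%) and 894 (51.9%), a fold of 0.918 (0.855 to 0.986).

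**Figure D1:**
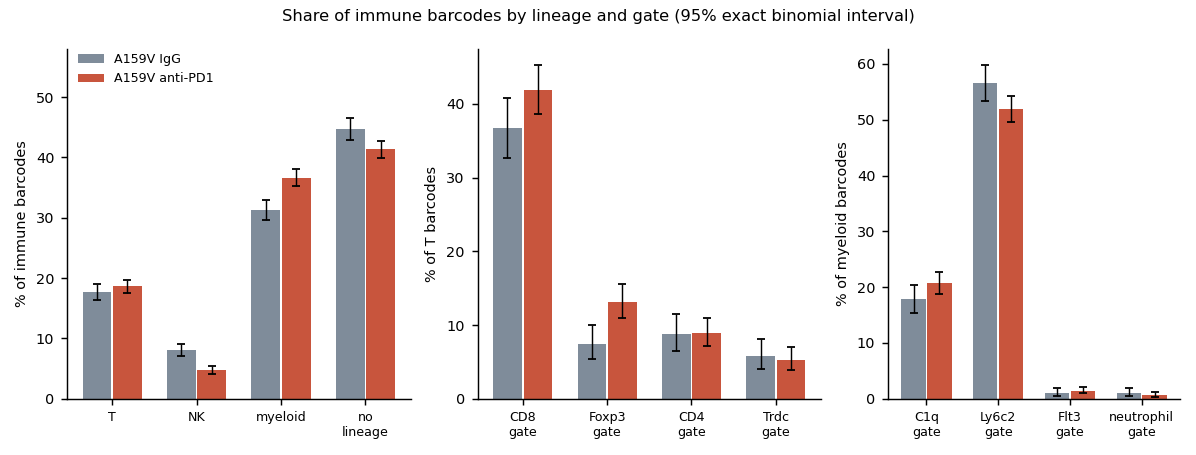
Share of immune barcodes (lineages), of T barcodes and of myeloid barcodes (gates) in A159V IgG and A159V anti-PD1, in percent, with exact binomial 95% intervals as error bars and 1 library a group. The NK share was 8.0% in IgG and 4.75% in anti-PD1, and the Foxp3 gate held 7.48% and 13.2% of T barcodes.

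UMIs were summed over the barcodes of a lineage and scaled to the lineage's total (CPM, UMIs per 1000000), and ratios are log2 values of anti-PD1 over IgG with 1 CPM added to each side. A gene was compared when it had a mean of at least 25 CPM and at least 50 UMIs over both libraries, and it was counted as higher or lower past 1.5-fold, a call by size alone. In summed UMIs, a larger fraction of cells that express a gene and more of its RNA per cell cannot be told apart. The median ratio over all genes was 0.07 in T, 0.14 in NK and 0.03 in myeloid barcodes. RNA composition differed between the libraries, and 1 library a group cannot separate the treatment from library preparation. Genes that span at least 50 kb held 25.2% of T barcode UMIs in IgG and 30.8% in anti-PD1. Their share was 20.5% and 26.7% in NK barcodes, and 22.7% and 25.8% in myeloid barcodes. Ribosomal protein genes held 16.5% and 13.7% of UMIs in T, 20.8% and 17.4% in NK, and 11.2% and 8.78% in myeloid barcodes. Genes counted as higher spanned a median of 60.5 kb in T, 75.6 kb in NK and 53.4 kb in myeloid barcodes, against 30.9, 30.6 and 28.5 kb for all genes compared, and genes counted as lower 9.33, 8.68 and 8.97 kb. The part of this shift in any single gene's ratio was not tested.

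**Figure D2:**
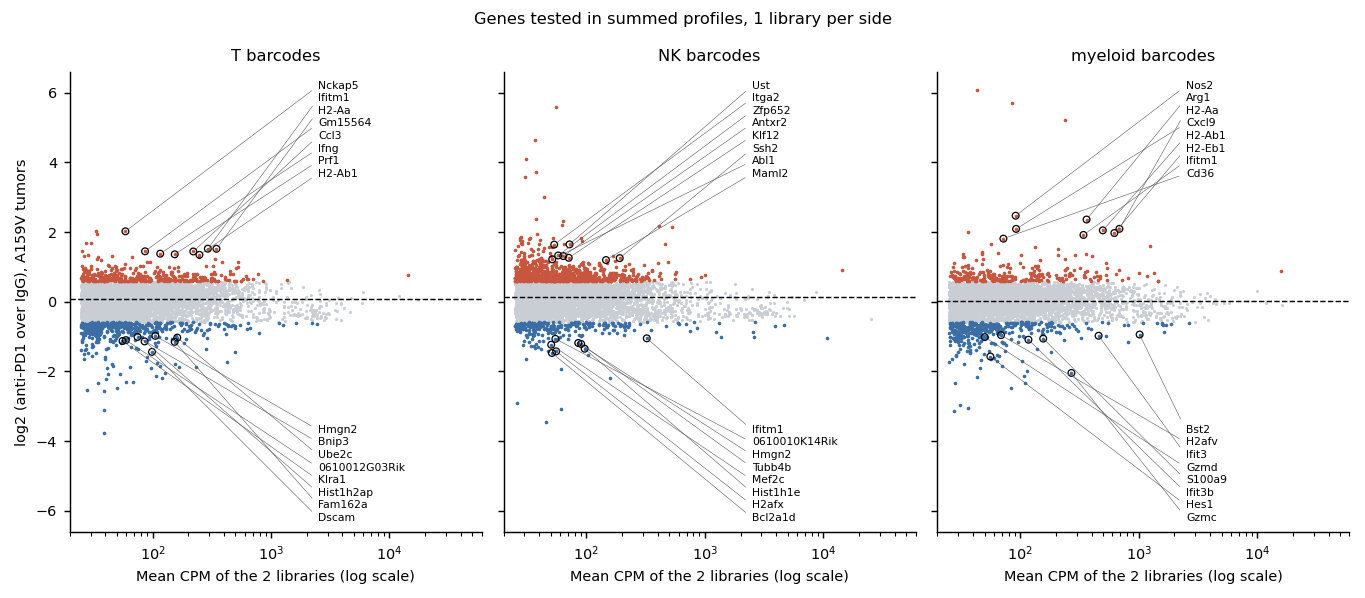
Mean CPM of the A159V libraries (log axis) against the log2 ratio of anti-PD1 over IgG for each gene compared in T, NK and myeloid barcodes. Red and blue points are past 1.5-fold (346 higher and 454 lower in T, 785 and 265 in NK, 237 and 372 in myeloid), the dashed line is the median of all genes, and circled genes are those named by rule.

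Antigen presentation genes of MHC class II were higher in myeloid barcodes under anti-PD1. MHC class II proteins present peptides to CD4 T cells, and all 6 of the 10 listed genes with enough UMIs were past 1.5-fold higher, with a median log2 ratio of 1.78, beside 4.37% of all 5426 genes counted as higher and a median of 0.03. H2-Aa, the alpha chain of I-A (chr17:34282744-34287823), was at 260.0 CPM in the IgG library and 1114 CPM in the anti-PD1 library, a log2 ratio of 2.09 (95% interval 1.998 to 2.19). Its partner H2-Ab1 (chr17:34257689-34269419) was at 193 and 802 CPM and H2-Eb1 (chr17:34305867-34316674) at 252 and 993 CPM, log2 ratios of 2.05 and 1.97. These genes sit side by side in the MHC. After thinning to 1500 UMIs, H2-Ab1 had a UMI in 12.9% of 900 myeloid barcodes (10.8 to 15.3) and 31.0% of 1654 (28.7 to 33.2), against 0.163% and 0.723% of tumor barcodes. Cd74, the invariant chain that guides class II proteins through the cell, was at 620.2 and 1869 CPM (1.59). H2-DMb1 and H2-DMa, which load the peptide, were at 49.8 and 107 CPM (1.09) and 91.4 and 169 CPM (0.88). The median of the group lay between 1.30 and 2.0 in every alternative run. Barcodes that met no lineage gate had more class II RNA and a smaller difference. There H2-Eb1 was at 1360 CPM in the IgG library and 1592 CPM in the anti-PD1 library, and H2-Ab1 at 880 and 1243 CPM. What these barcodes were was not tested. The 16 MHC class I genes had none past 1.5-fold in either direction, with a median of 0.05.

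The 2 interferon programs separated in myeloid barcodes. Of the 29 type I interferon-stimulated genes compared, all had a ratio below 0, 9 were past 1.5-fold lower and none higher, with a median of -0.42, beside 6.86% of all genes counted as lower. Of the 32 interferon gamma response genes, 27 lay above 0, 4 were past 1.5-fold higher and none lower, with a median of 0.34. The 160 bases before the transcription start of 5 of these genes are shown to place the members beside the motifs that interferon-activated factors bind. They are RefSeq sequences of GRCm38.p6 on the gene's strand, written 5′ to 3′, with capitals for the core of the interferon-stimulated response element (ISRE, GAAANNGAAA) in the first 4 and for the core of the gamma-activated site (GAS, TTCNNNGAA) in the last, found on either strand. Overlapping matches run together in Isg15 and Bst2.
Ifit3: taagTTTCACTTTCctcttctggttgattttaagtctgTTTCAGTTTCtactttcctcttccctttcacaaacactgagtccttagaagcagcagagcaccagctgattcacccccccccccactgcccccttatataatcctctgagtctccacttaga
Isg15: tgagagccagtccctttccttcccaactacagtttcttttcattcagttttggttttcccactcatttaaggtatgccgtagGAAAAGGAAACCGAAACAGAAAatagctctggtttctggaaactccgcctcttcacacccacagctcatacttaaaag
Bst2: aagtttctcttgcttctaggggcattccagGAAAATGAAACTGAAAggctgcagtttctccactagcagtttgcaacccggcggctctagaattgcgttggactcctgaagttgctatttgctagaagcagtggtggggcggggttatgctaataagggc
Gbp2: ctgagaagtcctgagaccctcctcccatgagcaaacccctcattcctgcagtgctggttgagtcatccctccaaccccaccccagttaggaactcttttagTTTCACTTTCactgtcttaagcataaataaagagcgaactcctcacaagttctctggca
Irf1: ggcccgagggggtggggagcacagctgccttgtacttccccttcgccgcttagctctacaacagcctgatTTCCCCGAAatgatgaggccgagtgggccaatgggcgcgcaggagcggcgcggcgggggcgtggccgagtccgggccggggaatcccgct
These stretches are chr19:34583369-34583528, plus strand (Ifit3), chr4:156200819-156200978, minus strand (Isg15), chr8:71537473-71537632, minus strand (Bst2), chr3:142620503-142620662, plus strand (Gbp2) and chr11:53769854-53770013, plus strand (Irf1). Over windows of 250 bases before to 50 after the start, the ISRE core was in 3.44% of 32851 RefSeq promoters, in a promoter of 3.99% of 27025 genes and of 5.49% of the genes compared in myeloid barcodes, and in 15 of the 23 type I genes matched (65.2%), against 10 of 25 interferon gamma genes (40.0%). The GAS core was in 8.30% of all promoters, 9.55% of all genes, 8.01% of the genes compared, 4 of 23 type I genes (17.4%) and 10 of 25 interferon gamma genes, and neither core was in the 4 class II genes matched. The motif counts are a description of the lists and say nothing of which factor was active.

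Among the type I genes, Ifit3, an antiviral partner of other Ifit proteins, was at 608 CPM in the IgG library and 309 CPM in the anti-PD1 library, a log2 ratio of -0.98 (95% interval -1.06 to -0.89). Its near-identical neighbor Ifit3b was at 159.9 and 74.6 CPM (-1.09), and reads of such copies can be split between them. Bst2, tetherin, which holds virus particles at the cell surface, was at 1338 and 696 CPM (-0.94). Isg15, a ubiquitin-like modifier, was at 1891 and 1235 CPM (-0.61) and Isg20, an exonuclease, at 282 and 151 CPM (-0.90). The promoters with an ISRE core thus lay in front of genes on both sides of 0. Gbp2, a guanylate-binding protein, carried that core and was at 228 CPM in the IgG library and 573 CPM in the anti-PD1 library, a log2 ratio of 1.33 (95% interval 1.22 to 1.43). Irf1, a transcription factor that interferon gamma induces, was at 214 and 419 CPM (0.97) and Gbp4 at 44.03 and 91.6 CPM (1.04). The chemokines of the response did not move together: Cxcl9 was at 34.4 and 150.0 CPM (2.09) and Cxcl10 at 2407 and 1739 CPM (-0.47), although both attract T cells through Cxcr3. The type I count went from 7 to 15 lower genes over the alternatives with a median between -0.59 and -0.38, and that of the interferon gamma genes reached 7 or 8 in 4 of them.

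Genes of both classical and alternative macrophage activation were higher under anti-PD1. Nos2 (chr11:78920787-78960254), which makes nitric oxide from arginine, was at 27.2 CPM in the IgG library and 156 CPM in the anti-PD1 library, a log2 ratio of 2.47 (95% interval 2.19 to 2.76). Thinned to 1500 UMIs, it was in 3.22% (2.17 to 4.595) and 10.8% (9.31 to 12.4) of myeloid barcodes, and in 2.04% and 6.99% of tumor barcodes, so its share was higher under anti-PD1 in both. In myeloid barcodes free of tumor and stromal marker UMIs the log2 ratio was 2.36. Arg1 (chr10:24915221-24927484), which splits arginine into ornithine and urea, was at 118 and 608 CPM, a log2 ratio of 2.36 (95% interval 2.22 to 2.504), and after thinning it was in 6.78% (5.22 to 8.62) and 18.2% (16.4 to 20.1) of myeloid barcodes, against 0.244% and 0.482% of tumor barcodes. These enzymes, which compete for arginine, had the highest ratios of the genes named in myeloid barcodes. In the inflammatory list 6 of 17 genes were past 1.5-fold higher and 2 lower, with a median of 0.45, among them Ptgs2, the inducible prostaglandin synthase, at 473 and 884 CPM (0.90), and Il1a at 32.2 and 59.03 CPM (0.85). In the alternative list 4 of 9 were higher and 1 lower, with a median of 0.51. Over all myeloid genes compared 4.37% were higher and 6.86% lower. In barcodes free of tumor and stromal marker UMIs the alternative list had 4 higher and 1 lower, with a median of 0.12. The inflammatory list had 4 higher and 2 lower there, with a median of 0.37. The mannose receptor Mrc1 was at 162 and 412 CPM (1.34), the scavenger receptor Stab1 at 25.9 and 68.4 CPM (1.37) and the transglutaminase F13a1 at 255 and 471 CPM (0.88). Retnla, the member that was lower, was at 50.1 and 4.83 CPM, and all of its UMIs in IgG came from 5 barcodes.

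Cd36, a fatty acid and oxidized lipid receptor, was at 31.4 CPM in the IgG library and 113 CPM in the anti-PD1 library (1.81), and Abca1, which exports cholesterol, at 168 and 331 CPM (0.97), while 3 of the 19 genes of the lipid-associated list were lower. Ifitm1, an interferon-induced membrane protein, was at 142 and 541 CPM (1.92), opposite in sign to the type I list. Among 16 chemokines 4 were higher and none lower. Besides Cxcl9 these were Ccl8 at 199 and 515 CPM (1.37), Cxcl3 at 83.7 and 166 CPM (0.98) and Ccl6 at 469.7 and 811 CPM (0.79). The complement and C1q list had all 14 genes above 0 and 2 past 1.5-fold, with a median of 0.42. C1qa itself was at 461 and 616 CPM. Of 15 monocyte genes, Ccr2, the receptor that brings monocytes out of the marrow, was the 1 past 1.5-fold, at 351 and 584 CPM (0.73). Over all myeloid genes compared 4.37% were higher. In myeloid barcodes free of tumor and stromal marker UMIs none of these 14 and 15 genes was past 1.5-fold, with medians of 0.15 and -0.02. The median of the lipid-associated list was 0.22, and -0.10 in those barcodes. Checkpoint ligands had 2 of 9 genes higher, and the PD-L1 gene Cd274 was at 594 and 746 CPM, a log2 ratio of 0.33 (95% interval 0.26 to 0.40). Among Fc receptors, Fcgr4, an activating receptor for IgG, was at 172 and 265 CPM (0.62). Hif1a, the oxygen-regulated transcription factor, was the 1 gene of 26 in the glycolysis and hypoxia list past 1.5-fold, at 335 and 559 CPM (0.74).

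Other genes with the lowest ratios came with values from few or other cells. Gzmc, a granzyme, was at 436 and 105 CPM (-2.04), with 68.9% and 93.0% of its UMIs in 5 barcodes, and Gzmd at 67.4 and 32.9 CPM (-1.01). The neutrophil genes S100a9 at 211 and 101 CPM (-1.06) and G0s2 at 65.2 and 6.98 CPM (-3.05) were lower, and the neutrophil gate held only 10 and 12 barcodes. Hes1, a target of Notch signaling, was at 84.2 and 27.6 CPM (-1.57), and the histone gene H2afv at 91.1 and 46.4 CPM (-0.96). Proliferation genes were lower in 11 of 14, with a median of -0.89, but 10 of the 14 were more than 5 times higher in another kind of barcode, and none of the 6 still compared was past 1.5-fold in the 787 and 1249 barcodes free of UMIs of 5 tumor and stromal marker genes. In those barcodes the class II median was 1.37 with 7 of 7 genes higher, type I genes were lower in 14 of 29, Arg1 had a log2 ratio of 1.98 and Gzmd one of -0.23, and the median of the proliferation list was -0.05. S100a9 was at -0.44 after thinning. Tumor-line markers went from a summed 327 to 123 CPM and stromal markers from 1179 to 946.5 CPM. B and plasma markers went from 58.3 to 591 CPM, and Igkc was at 11.6 and 467 CPM with 97.4% of its anti-PD1 UMIs in 5 barcodes. The part of the B and plasma UMIs in other ratios was not tested.

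The class II genes were higher, and the type I genes lower, in macrophage-like and in monocyte-like barcodes taken apart. In the C1q gate H2-Aa was at 258 CPM in the IgG library and 1593 CPM in the anti-PD1 library (2.62), and in the Ly6c2 gate at 253 and 806 CPM (1.67), with class II medians of 2.11 and 1.29 and all 6 genes past 1.5-fold in each. Type I genes were lower in 17 of 29 in the C1q gate (median -0.65) and in 6 of 29 in the Ly6c2 gate (median -0.34). Over all genes of these gates 6.53% and 7.15% were lower, and 6.16% and 5.32% higher. Ifit3 was at 433 and 176 CPM in the first gate and 758 and 424 CPM in the other. Arg1 was at 322 and 1168 CPM and 39.3 and 201 CPM, and Nos2 at 38.6 and 178 CPM and 27.4 and 142 CPM, so these enzymes were higher in both gates. Cxcl9 had a log2 ratio of 3.10 in the C1q gate and 1.33 in the Ly6c2 gate. Gbp2 had almost the same ratio in each, 1.29 and 1.34. Ccl8 was a gene of the C1q gate, at 776 and 1584 CPM, against 12.9 and 13.7 CPM in the Ly6c2 gate. The difference between the gates was not tested.

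**Figure D3:**
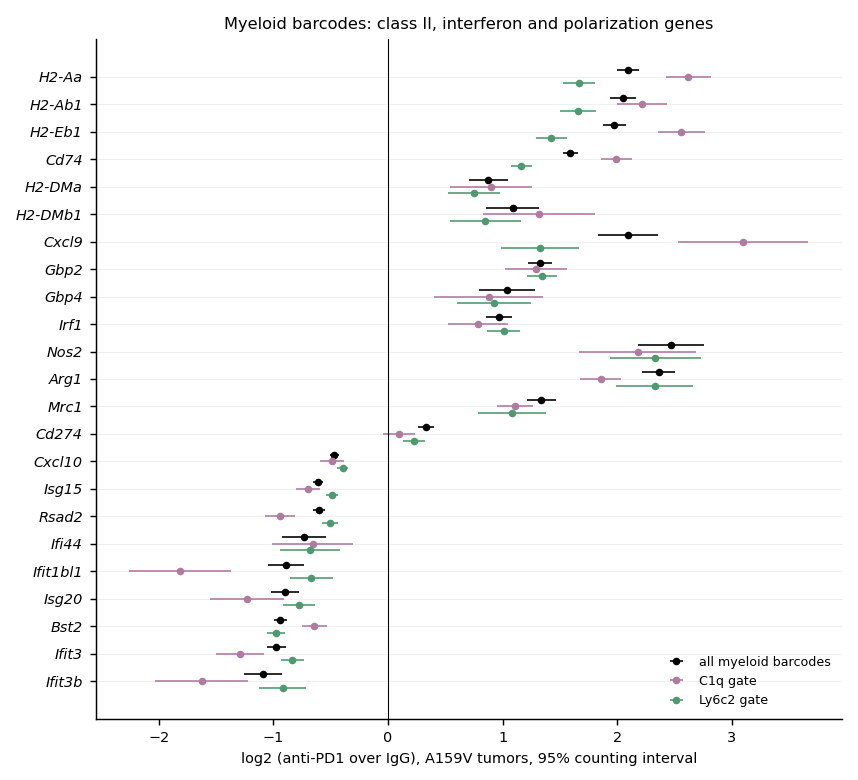
Log2 ratio of anti-PD1 over IgG for 23 genes in all myeloid barcodes, the C1q gate and the Ly6c2 gate, with 95% counting intervals as bars and 1 library a group. Class II genes lay above 0 and type I interferon genes such as Ifit3 and Bst2 below 0 in all 3 sets of barcodes.

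T barcodes held more RNA of some killing and cytokine genes under anti-PD1, together with more RNA of inhibitory receptors. Of 18 cytotoxic effector genes 5 were past 1.5-fold higher and 1 lower, with a median of 0.30, beside 5.7% of all 6068 genes counted as higher, 7.48% counted as lower and a median of 0.07. Prf1 (chr10:61297833-61304680), which encodes the pore-forming protein perforin, was at 85.7 CPM in the IgG library and 222 CPM in the anti-PD1 library, a log2 ratio of 1.36 (95% interval 1.13 to 1.59) that stayed between 1.06 and 1.37 over the alternatives. After thinning, a Prf1 UMI was in 8.24% (5.90 to 11.1) and 16.0% (13.6 to 18.7) of T barcodes, against 0.0815% and 0.0804% of tumor barcodes. Ifng (chr10:118441046-118445892), interferon gamma, was at 63.9 and 168 CPM, a log2 ratio of 1.38 (95% interval 1.12 to 1.64). Its UMIs came from few cells, with 33.3% and 43.8% in 5 barcodes. The ratio was 0.81 with equal weight per barcode and 0.21 in barcodes thinned and then gated again. In T barcodes gated before thinning, 5.42% (3.54 to 7.90) and 8.26% (6.46 to 10.4) had a UMI after it. Ccl3, a chemokine that activated T cells release, was at 118 and 323 CPM (1.44), and Gzmb at 1057 and 1382 CPM (0.39). Of the neighboring granzymes, Gzmf was at 341 and 674 CPM (0.98) and Gzmc at 548 and 289.7 CPM (-0.92). Tnf, at 70.9 and 59.3 CPM (-0.25), and the early activation marker Cd69, at 112 and 132 CPM (0.24), were within 1.5-fold. In T barcodes free of tumor and stromal marker UMIs the list had 4 genes higher and 3 lower with a median of 0.04, and Prf1 and Ifng had log2 ratios of 1.06 and 1.499.

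Inhibitory receptors, which T cells gain with repeated stimulation, were past 1.5-fold higher in 8 of 14 genes and lower in none, with a median of 0.60. Over all T genes compared 5.7% were higher and 7.48% lower. Lag3, which binds class II proteins, was at 38.9 CPM in the IgG library and 95.6 CPM in the anti-PD1 library, a log2 ratio of 1.28 (95% interval 0.94 to 1.61). Klrc1, a subunit of the NKG2A receptor, was at 102 and 201 CPM (0.97), Btla at 27.3 and 51.5 CPM (0.89) and Havcr2, TIM-3, at 87.6 and 144 CPM (0.71, and 0.20 after thinning). Ctla4 was at 348 and 533 CPM (0.61), Tigit at 27.8 and 44.2 CPM (0.65) and Vsir at 53.3 and 82.5 CPM (0.62). Pdcd1 itself, the target of the antibody, was at 70.4 and 102 CPM, a log2 ratio of 0.53 (95% interval 0.26 to 0.80). The count of 8 fell to 5 with 10 CPM added, to 4 after thinning, to 3 with equal weight per barcode and to 2, with 1 lower, in the 446 and 635 barcodes free of UMIs of 5 tumor and stromal marker genes, and the median was as low as 0.29 with equal weights. Costimulatory genes had 5 of 19 higher and none lower. Icos, a receptor of activated and regulatory T cells, was at 203 and 473 CPM (1.22), the interleukin-2 receptor chain Il2ra at 199 and 328 CPM (0.72), and Cd27 at 61.6 and 99.6 CPM (0.68).

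Foxp3 was at 25.9 CPM in the IgG library and 65.4 CPM in the anti-PD1 library, a log2 ratio of 1.30 (95% interval 0.89 to 1.71). The Foxp3 gate is set on UMIs of this gene, so its larger share rests on the same counts. Of 12 regulatory T cell genes 3 were higher and 1 lower, with a median of 0.38, beside 5.7% and 7.48% of all T genes. Ikzf2, Helios, was at 1275 and 1681 CPM (0.40), and Areg, a growth factor for tissue repair, was lower at 113 and 72.1 CPM (-0.64). Within the Foxp3 gate of 41 and 115 barcodes, Icos was at 617 and 1140.4 CPM (0.89), Ctla4 at 1278 and 1444 CPM (0.18) and Il2ra at 777 and 945 CPM (0.28). In the CD8 gate, 10 of 19 cytotoxic genes were higher and 2 lower, with a median of 0.60, and 5 of 12 inhibitory receptors were higher and none lower, with a median of 0.47, beside 7.93% of all genes there counted as higher and 7.8% as lower. Prf1 there was at 138 and 403 CPM (1.54), Ifng at 119.7 and 339 CPM (1.49), Gzmf at 652 and 1412 CPM (1.11) and Gzmb at 1185 and 1678 CPM (0.501). The CD8 gate also held more Pdcd1, at 92.9 and 154 CPM (0.73), more Lag3, at 62.7 and 127 CPM (1.01), and more Icos, at 90.6 and 293 CPM (1.68).

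Chemokine receptors that place T cells in tissue were higher in 4 of 8 genes, among them Cx3cr1 at 17.6 and 34.4 CPM (0.93), Ccr2 at 117 and 214 CPM (0.87) and Cxcr6 at 87.6 and 158 CPM (0.85). The naive and memory list had 3 of 12 higher and 1 lower, beside 5.7% and 7.48% of all T genes compared. S1pr1, the receptor by which lymphocytes leave tissue, was at 26.4 and 47.5 CPM (0.82), Bach2 at 171 and 287 CPM (0.74) and Tcf7, the factor of stem-like T cells, at 114 and 111 CPM (-0.04). Of genes shared with NK cells, 7 of 21 were higher and 3 lower, with Tbx21, which encodes T-bet, at 96.4 and 164 CPM (0.76) and Klra1 at 76.9 and 34.7 CPM (-1.13). Gamma-delta genes went the other way, with 3 of 4 lower: Trgv2 was at 42.6 and 14.8 CPM (-1.46), Tcrg-C2 at 40.8 and 20.97 CPM (-0.93) and Trdc at 60.7 and 36.4 CPM (-0.72). The whole list of type 17 and gamma-delta genes, summed, did not fall, at 439 and 499 CPM. Of the genes eligible for naming, Nckap5 had the highest ratio, at 22.7 and 95.4 CPM, a log2 ratio of 2.02 (95% interval 1.61 to 2.44), and Dscam, an adhesion gene best known in neurons, the lowest, at 145 and 52.9 CPM (-1.44). In WT T barcodes these genes had log2 ratios of 1.75 and -1.94. Of all genes counted as higher in T barcodes 86.1% lay above 0 in WT, and of those counted as lower 17.6%, beside 59.2% of all genes compared. Genes that span at least 50 kb held 27.3% of T barcode UMIs in WT IgG and 37.5% in WT anti-PD1. The part of this in the WT values was not tested. Ifitm1 was at 151 and 435 CPM (1.52) and Gm15564, an antisense transcript, at 45.9 and 127 CPM (1.45).

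Some genes of the cell cycle were lower in T barcodes. Of 27 proliferation genes none was higher and 9 were past 1.5-fold lower, with a median of -0.39: Ube2c, which drives exit from mitosis, was at 217 CPM in the IgG library and 106 CPM in the anti-PD1 library (-1.03), Cdk1 at 101 and 56.2 CPM (-0.83) and Stmn1 at 363 and 208 CPM (-0.80). The chromatin genes Hist1h2ap, at 118 and 53.1 CPM (-1.14), and Hmgn2, at 140.4 and 70.7 CPM (-0.98), were also among the 8 lowest. Of 26 glycolysis and hypoxia genes 8 were lower and 3 higher, against 2 lower and none higher in barcodes free of tumor and stromal marker UMIs, where 11 proliferation genes were lower. Bnip3, a hypoxia-induced mitophagy receptor, was at 100.1 and 49.2 CPM (-1.01), the glycolytic enzyme Pgam1 at 377 and 220.4 CPM (-0.77) and Mif at 828 and 492 CPM (-0.75), while Pfkfb3, a regulator of glycolysis, was at 73.2 and 119 CPM (0.69). Fam162a, which hypoxia also induces, was at 212 and 95.1 CPM (-1.15) and the gene 0610012G03Rik at 81.6 and 37.5 CPM (-1.10). In barcodes free of those UMIs Bnip3, Fam162a and 0610012G03Rik were within 1.5-fold, at -0.36, -0.52 and -0.35. Of 29 type I genes 6 were lower and none higher, with a median of -0.27. Once barcodes of several lineages were left out, 2 were lower (median -0.25), a share below the 7.48% over all genes. In barcodes free of tumor and stromal marker UMIs 4 were lower (median -0.39). Ifi44 was at 65.8 and 30.2 CPM (-1.10), Rsad2, viperin, at 352 and 181 CPM (-0.95) and Bst2 at 1018 and 552 CPM (-0.88). Interferon gamma response genes had 3 of 32 higher and 2 lower, with Gbp2 at 82.5 and 141 CPM (0.77), and stress genes of tissue dissociation 5 of 25 lower. Over all T genes compared 5.7% were higher and 7.48% lower, near the shares of the interferon gamma list.

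Markers of other cells differed between the T profiles. Summed tumor-line markers went from 376 to 154 CPM, and Rhox5, one of them, from 207 to 48.9 CPM. Stromal markers went from 835 to 230.1 CPM and S100a9 was at 73.2 and 4.47 CPM. The class II genes were higher in T barcodes as well, 5 of 6 with a median of 1.15, which was 0.75 once barcodes of several lineages were left out. H2-Aa was at 178 and 514 CPM (1.52), with 54.3% of its UMIs in IgG in 5 barcodes, and H2-Ab1 at 139.9 and 358 CPM (1.35). Mouse T cells make little class II RNA, and the part of myeloid RNA in these barcodes was not tested.

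NK barcodes, of which there were 249 and 223, held less RNA of most granzymes and of cell cycle genes under anti-PD1, and more of genes known from resting and memory lymphocytes. Of 17 cytotoxic genes 5 were past 1.5-fold lower and 1 higher, with a median of -0.22, beside 4.74% of all 5596 genes counted as lower, 14% counted as higher and a median of 0.14. The lower genes were granzymes. Gzmc (chr14:56231441-56234656), the most abundant of them, was at 14357 CPM in the IgG library and 6966 CPM in the anti-PD1 library, a log2 ratio of -1.04 (95% interval -1.08 to -1.01). Gzmd was at 3293 and 1798 CPM (-0.87), Gzme at 1830.0 and 910.2 CPM (-1.01), Gzmf at 4798 and 2969 CPM (-0.69) and Gzmg at 1618 and 887 CPM (-0.87). These genes are close copies in 1 cluster, so reads can be split between them. The other granzymes did not share this: Gzmb was at 3604 and 2978 CPM (-0.28) and Gzma at 2195 and 2822 CPM (0.36), with a Gzma UMI in 52.5% (46.0 to 59.0) and 67.8% (61.0 to 74.0) of thinned barcodes, and in 0 of the thinned tumor barcodes. Prf1 was at 851 and 958 CPM (0.17), and Ifng at 39.4 and 39.6 CPM, a log2 ratio of 0.01 (95% interval -0.51 to 0.53). The ratios of Prf1 and Ifng were thus near 0 in NK barcodes and above 1 in T barcodes, and that difference was not tested. Ccl5, a chemokine of killer cells, was the 1 cytotoxic gene past 1.5-fold higher, at 257 and 552 CPM (1.10).

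The naive and memory list was higher in 5 of 8 genes and lower in none in NK barcodes, with a median of 0.81. Tcf7 was at 36.2 CPM in the IgG library and 68.6 CPM in the anti-PD1 library (0.90) and the survival gene Bcl2 at 698 and 1148 CPM (0.72). Among NK receptors and maturation genes 7 of 27 were higher and 2 lower, beside 14% and 4.74% of all NK genes compared. Itga2, which encodes the NK marker CD49b, was at 25.4 and 81.5 CPM, a log2 ratio of 1.64 (95% interval 1.13 to 2.15), and the interleukin-12 receptor chain Il12rb2 at 83.9 and 177 CPM (1.07). Klrg1, a receptor of mature NK cells, was lower at 66.8 and 35.04 CPM (-0.91), and so was Klra1 at 102 and 57.1 CPM (-0.83). Tox, a factor of NK development and of exhausted T cells, was at 57.9 and 129 CPM (1.15). The remaining highest ratios were of Ust, Zfp652, Antxr2, Klf12, Ssh2, Abl1 and Maml2, between 1.20 and 1.65. All 7 were above 1 in WT NK barcodes as well. Genes that span at least 50 kb held 23.6% of NK barcode UMIs in WT IgG and 36.1% in WT anti-PD1. The part of this shift in the 7 ratios was not tested. Of all 785 genes counted as higher in NK barcodes, 89.7% lay above 0 in WT, as did 60.8% of all genes compared. Ust, a sulfotransferase of glycosaminoglycans, was at 34.3 and 109.7 CPM, with a WT log2 ratio of 2.01.

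Proliferation genes were lower in 14 of 25 in NK barcodes and higher in none, with a median of -0.63. Nusap1, a spindle protein, was at 69.3 CPM in the IgG library and 25.1 CPM in the anti-PD1 library (-1.43) and Pclaf, which acts in DNA replication, at 175 and 93.7 CPM (-0.89). The count of 14 was 9 in the 197 and 134 barcodes free of tumor and stromal marker UMIs and 1 after thinning. Hist1h1e at 139 and 54.1 CPM (-1.35, and -0.41 after thinning), H2afx at 81.4 and 29.7 CPM (-1.42), Hmgn2 at 119 and 51.8 CPM (-1.18) and Tubb4b at 127 and 54.1 CPM (-1.21), genes of chromatin and tubulin, were among the 8 lowest, with 0610010K14Rik at 74.4 and 35.04 CPM. Bcl2a1d, of a family of close copies of a survival gene, was at 75.7 and 26.7 CPM (-1.47). Mef2c, at 71.2 and 29.7 CPM (-1.23), turned sign after thinning, to 1.53. Ifitm1 was lower in NK barcodes, at 436 and 210.2 CPM (-1.05), where it was higher in T and myeloid barcodes. Type I interferon genes had 1 of 25 higher and none lower, with a median of 0.14 that equals the median of all genes, against 6 higher, 1 lower and a median of 0.42 in the barcodes free of tumor and stromal marker UMIs, and interferon gamma response genes 7 of 30 higher and 1 lower. Over all NK genes compared 14% were higher and 4.74% lower. The scale set the NK split: with a median-of-ratios scale, whose factor lay 0.15 (log2) from the total count, 419 genes were higher and 493 lower in place of 785 and 265. Stromal markers went from a summed 712 to 2639 CPM, all 6 compared being higher, with Col1a1 at 192 and 855 CPM and 97.7% and 99.1% of its UMIs in 5 barcodes. In the barcodes free of such UMIs 5 of 17 cytotoxic genes were lower, and 6 of 7 naive and memory genes were higher with a median of 0.93.

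**Figure D4:**
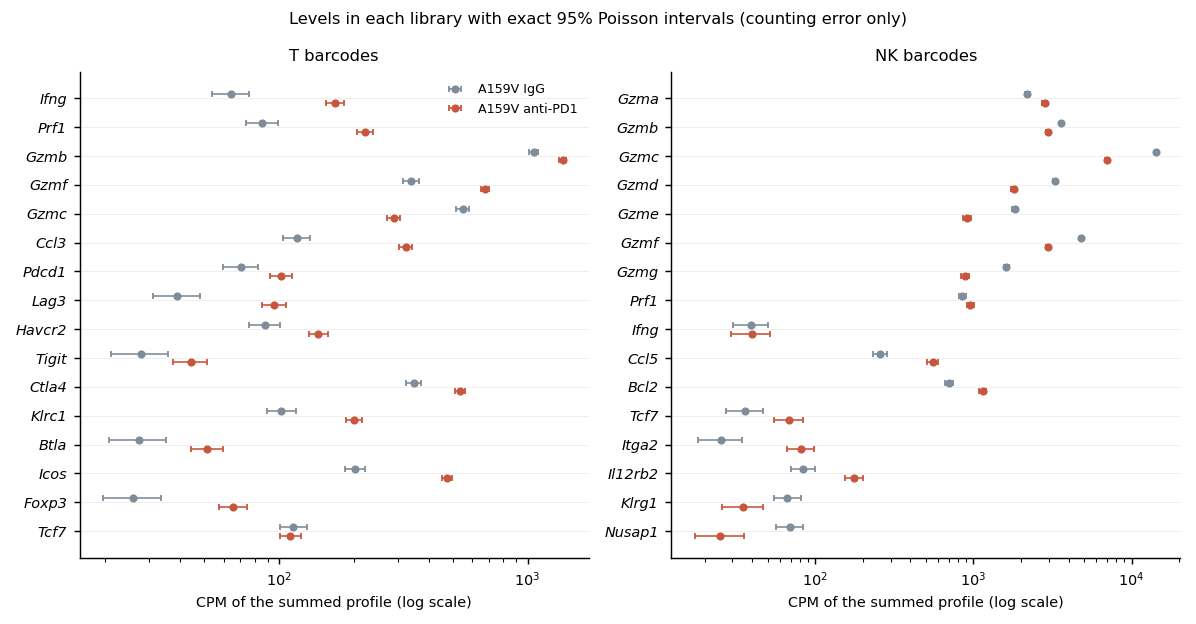
CPM (log axis) of 16 genes in T barcodes and 16 in NK barcodes of A159V IgG and A159V anti-PD1, 1 library each, with exact Poisson 95% intervals as bars. In T barcodes Prf1 was at 85.7 CPM in IgG and 222 CPM in anti-PD1, and in NK barcodes Gzmc was at 14357 and 6966 CPM.

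List medians differed between lineages. Proliferation had a median below 0 in T (-0.39), NK (-0.63) and myeloid barcodes (-0.89), the last being -0.05 in barcodes free of tumor and stromal marker UMIs. The naive and memory list stood higher in NK (0.81) than in T barcodes (0.27), and type I interferon genes were below 0 in T (-0.27) and myeloid (-0.42) and in NK barcodes at 0.14, or 0.42 in barcodes free of tumor and stromal marker UMIs, and 14 of those 25 NK genes were more than 5 times higher in another kind of barcode. These comparisons between lineages were not tested.

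**Figure D5:**
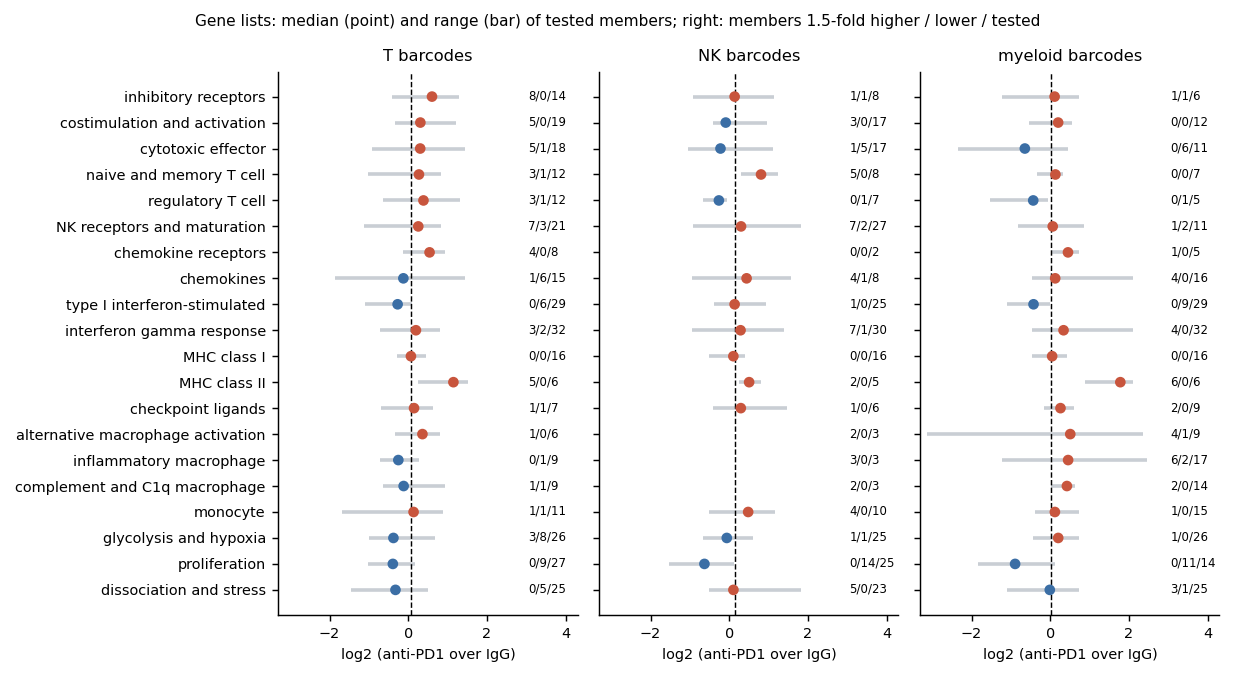
Median (point) and range (bar) of log2 ratios of anti-PD1 over IgG over the members compared of 20 gene lists in T, NK and myeloid barcodes, with the numbers higher, lower and compared beside each. Lists with fewer than 5 members compared have no point, and the dashed line is the median of all genes. MHC class II stood at 1.78 in myeloid barcodes and proliferation at -0.39 in T and -0.63 in NK barcodes.

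The WT libraries gave these values for the same members, from separate controls and with no test of the difference. MHC class II in myeloid barcodes had a median of 1.48 in WT and 1.78 in A159V tumors. Type I interferon genes had a median of -2.18 in WT myeloid barcodes and -0.42 in A159V, and the WT anti-PD1 library held few monocyte-like barcodes, as given with the depths. In T barcodes the medians of that list were -1.77 in WT and -0.27 in A159V. Interferon gamma response genes in myeloid barcodes had a median of -0.48 in WT and 0.34 in A159V, and Cxcl9 a log2 ratio of -0.09 in WT against 2.09. The cytotoxic list in T barcodes was at -0.34 in WT and 0.30 in A159V, with Prf1 at -0.29 and 1.36 and Ifng at -0.38 and 1.38. Inhibitory receptors were at 0.29 and 0.60. Arg1 and Nos2 in myeloid barcodes were above 0 in both tumors, with WT log2 ratios of 3.12 and 2.05.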

How the data were processed

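The authors deposited raw UMI counts per gene and barcode (32285 genes) for barcodes called as cells by Cell Ranger, in 4 libraries with 1 library a group. The file headers name version 7.2.0, and the submitters' processing notes name 5.0.1 and the build mm10. Introns were counted, per the study's methods, and the ambient RNA and doublet removal described there was not applied to these counts. Genes were placed by GENCODE M21, which held 32158 of them.

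Barcodes with more than 500 genes were gated on marker UMIs and summed per lineage, with numpy 2.4.6, scipy 1.17.1 and pandas 2.3.3 in python 3.11.15. Levels carry exact Poisson, shares exact binomial (Clopper-Pearson) and folds Katz or delta-method 95% intervals. No doublet caller was run: alternatives left out barcodes of several lineages (49 and 64), the 1% deepest, those with over 10% mitochondrial UMIs and those with any UMI of Rhox5, Prl2c2, Col1a1, Col1a2 or Col3a1. Others used stricter gates, more than 1000 genes, thinning to 1500 UMIs, median-of-ratios scaling, 10 CPM added, equal weight per barcode, or no CPM filter. Ratios, gene counts and lineage folds after thinning used gates set again on the thinned UMIs. Shares of barcodes with a UMI of a gene kept the gates of the full counts. The fold scripts were tested on simulated data.

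Named genes were the 8 highest and 8 lowest ratios per lineage among genes with a mean of at least 50 CPM and 100 UMIs and the same sign without barcodes of several lineages and with equal weights. Gate, mitochondrial, ribosomal protein, hemoglobin, immunoglobulin, T cell receptor and sex-linked genes were not eligible, nor were genes more than 5 times higher in another kind of barcode. To these were added key genes of each lineage and up to 6 members of each list with the largest ratios or the highest levels. In T barcodes 3859 genes reached the minimum and 3025 were eligible, in NK 3482 and 2879, and in myeloid barcodes 3481 and 2679. Members, gates and lists were chosen with earlier results of these data known. Files of barcodes and features hold names only. Some items are not reported here.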

Additional observations from a re-analysis of the deposited data

Results flagged for a closer look

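Barcodes that met no lineage gate were outside the comparisons. They held myeloid and NK genes, with Ly6c2 in 41.0% and 42.4%, Itgam in 33.3% and 42.7% and Klre1 in 12.4% and 8.14% of barcodes. Genes of other cells were seen in fewer of them, S100a8 in 3.67% and 6.08% and Jchain in 0.14% and 0.72%. S100a8, a neutrophil gene, was at 166.7 CPM in the IgG library and 273 CPM in the anti-PD1 library over these 1391 and 1942 barcodes. Jchain, a plasma cell gene, was at 23.03 and 389.6 CPM.

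Some genes went in opposite directions in the A159V and WT libraries, with 1 library a group and no test of the difference. Mef2c in NK barcodes had a log2 ratio of anti-PD1 over IgG of -1.23 in A159V and 0.92 in WT tumors. Ifitm1 in myeloid barcodes was at 1.92 in A159V and -0.78 in WT. Gzmc in myeloid barcodes was at -2.04 in A159V and 1.11 in WT, and in A159V 68.9% and 93.0% of its UMIs came from 5 barcodes.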

How the results depend on the processing

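No paired analysis was possible because each group had 1 library, and no replicate could be left out for the same reason. The count of genes past 1.5-fold depended on the setting. The 51 named genes past 1.5-fold gave 510 recomputed values, of which 508 kept their direction and 494 stayed past 1.5-fold. Genes named by rule had to keep their sign without barcodes of several lineages and with equal weights, so their direction there was fixed beforehand. They were also the extremes of these same data, so the 508 is no test of how robust they are. Direction was lost by Mef2c in NK barcodes, at 1.53 after thinning, and H2afx, at 0 there. Thinning also took Hist1h1e in NK (-0.41), Ifng (0.21), Havcr2 (0.20) and Fam162a (-0.58) in T and S100a9 (-0.44) and Gzmd (-0.53) in myeloid barcodes inside 1.5-fold. Leaving out barcodes with tumor or stromal marker UMIs did so for Bnip3 (-0.36), Fam162a (-0.52), 0610012G03Rik (-0.35) and Havcr2 (0.55) in T and Gzmd (-0.23) in myeloid barcodes, stricter gates for Bnip3 (-0.57) and Havcr2 (0.54), and equal weights for Havcr2 (0.28).

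In T barcodes the 346 higher genes became 223 without barcodes holding tumor or stromal marker UMIs, 225 with 10 CPM added, 209 with equal weights and 580 with no CPM filter. The 454 lower genes became 266 with stricter gates, 196 without marker UMIs, 205 after thinning, 193 with equal weights and 929 unfiltered. In NK barcodes 785 higher genes became 129 after thinning and 419 with median-of-ratios scaling, and 265 lower genes became 110, 493 and, with 10 CPM added, 165. In myeloid barcodes 237 higher genes became 367 with stricter gates, 406 after thinning and 502 unfiltered, and 372 lower genes became 120 without marker UMIs, 211 after thinning, 111 with equal weights and 1257 unfiltered. The myeloid share fold of 1.17 became 1.33 with stricter gates and 1.0 after thinning.

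Higher inhibitory receptors in T barcodes (8) became 2 without marker UMIs, 4 after thinning, 5 with 10 CPM added and 3 with equal weights, and higher cytotoxic genes (5) became 3 in thinned and equal-weight data. Lower proliferation genes in NK barcodes (14) became 9 without marker UMIs and 1 after thinning, where fewer of them were compared. Lower type I genes in myeloid barcodes (9) became 14 without marker UMIs or with equal weights and 15 after thinning, and higher interferon gamma genes (4) became 7 without barcodes of several lineages, after thinning or with median-of-ratios scaling, and 8 with stricter gates. The cause of these moves was not tested.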

Other observations

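The barcodes with no lineage, 44.7% of immune barcodes in IgG and 41.4% in anti-PD1, were shallower than the rest, with medians of 1866 and 2339.5 UMIs. The neutrophil and Flt3 gates were applied only within myeloid barcodes and held 10 and 12, and 10 and 25, barcodes.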
